A study of Mus musculus with 3 samples.

Results

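The semaphorin, plexin, neuropilin, ephrin and Eph genes were described in single-cell RNA sequencing (scRNA-seq) data of the mouse brain. Members were taken by symbol alone, as every Sema3 to Sema7, Plxn, Nrp1, Nrp2, Epha, Ephb, Efna and Efnb gene of the matrix, which gave 56 of 31053 genes. They were 20 semaphorins (7 secreted Sema3 genes and 13 of Sema4 to Sema7), 9 plexins, 2 neuropilins, 8 ephrins (5 ephrin-A and 3 ephrin-B), 14 Eph receptors (9 EphA and 5 EphB) and 3 antisense RNAs of Plxna4.

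The study sequenced dissociated brain tissue of mice labelled as C56BL6 (written C57BL/6 in the study's methods) and as 10 weeks old, in 3 libraries: control, Ischemic Stroke (IS) and Hemorrhagic Stroke (HS). Ischemia was made by occlusion of the middle cerebral artery and hemorrhage by collagenase injected into the striatum, and each library pooled several mice, so that animals cannot be told apart. The sources used here do not state how long after stroke the sequenced tissue was taken. The 3 libraries were deposited as 1 matrix, in which a suffix of 1, 2 or 3 after the cell barcode marks the library, and no label pairs a suffix with a condition. The matrix was therefore treated as 1 pooled sample. No test and no comparison of conditions was made, and the values of the 3 suffixes are given only to show their spread.

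Semaphorins are guidance cues that bind plexins. The secreted Sema3 proteins mostly need neuropilins as co-receptors, whereas Sema4 to Sema7 proteins are held in the membrane and bind plexins directly. Ephrins are ligands on the cell surface and Eph proteins are receptor tyrosine kinases. Ephrin-A ligands are anchored by a lipid and mostly bind EphA receptors, ephrin-B ligands cross the membrane and mostly bind EphB receptors and EphA4, and signals can run both ways. In the brain both systems are known for steering axons and migrating cells, for shaping vessels and for acting on oligodendrocytes and immune cells.

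The matrix held 35968 barcodes, with between 69270514 and 105957232 unique molecular identifiers (UMIs) per suffix, each UMI standing for a captured RNA molecule. Of these barcodes, 31982 (88.9%) had at least 1000 UMIs and at most 30% mitochondrial UMIs, with a median of 6147 UMIs. Between 8969 and 13769 of them came from each suffix, and 110 barcode sequences occurred in 2 libraries. Cells were sorted into classes by how many genes of fixed marker lists had a UMI, and 26783 cells fell into 17 classes of at least 50 cells. Cells that passed gates of unrelated classes (2534) were left out, as were 2544 cells that passed none. The classes were uneven over the suffixes: 891 of 909 endothelial cells, 114 of 117 pericytes and 151 of 185 border macrophages carried suffix 3, 1573 and 933 of 2528 T cells carried suffixes 2 and 1, and none of the 75 neurons carried suffix 3. Class names stand for gates. Leading genes did not hold own markers in the neuron gate, led by Scg2, Avp and Cck, or in the dividing neuroblasts, which were gated neuroblasts with at least 3 cell cycle genes and were led by such genes. The gate of newly formed oligodendrocytes (52 cells) had Enpp6 from its own list among the top 10 genes but also Mag and Cldn11 from the mature list, and is called the early-marker gate here. The monocyte or dendritic gate was led by MHC class II genes.

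Levels are in CPM, the UMIs of a gene per 1000000 summed UMIs of a class, followed in brackets by an exact Poisson 95% interval. This interval covers counting error only, not the spread between mice. The kit counts 1 end of each transcript, so CPM does not scale with transcript length, but capture can differ between genes, and levels were compared across classes within a gene. A gene was counted as higher in a class when its CPM plus 5 was at least 2-fold the mean CPM plus 5 of the other classes. Counts of members rest on the 47 members with at least 100 UMIs in the classes, and the share of all 14615 such genes that met the same rule is given beside them. These UMIs were summed over all classes, so a gene can pass this filter through the class where it is high.

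Sequences upstream of the start site were read for members whose levels stood apart by class, from RefSeq windows of build GRCm38.p6, which held 47 of the 56 members. The 250 bases before the RefSeq start are shown 5′ to 3′ on the strand of the gene. They are given for the precursor gene Sema3d (chr5:12382916-12383165), the early-marker gene Plxnb3 (chrX:73756853-73757102) and the endothelial gene Sema3c (chr5:17574566-17574815), all on the plus strand. In GENCODE vM21, Sema3d starts at 12383385, Plxnb3 at 73757090 and Sema3c at 17574281. By those starts the Sema3c window lies inside its gene and the Plxnb3 window ends inside its gene. Capitals mark the SOX core ACAAAG or its reverse CTTTGT and the ETS core CCGGAA or its reverse TTCCGG.
Sema3d: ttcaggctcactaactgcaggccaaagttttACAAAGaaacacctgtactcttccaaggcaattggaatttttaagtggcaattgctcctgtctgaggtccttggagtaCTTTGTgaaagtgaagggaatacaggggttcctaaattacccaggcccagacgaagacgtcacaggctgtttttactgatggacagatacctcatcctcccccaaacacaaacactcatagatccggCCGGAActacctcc
Plxnb3: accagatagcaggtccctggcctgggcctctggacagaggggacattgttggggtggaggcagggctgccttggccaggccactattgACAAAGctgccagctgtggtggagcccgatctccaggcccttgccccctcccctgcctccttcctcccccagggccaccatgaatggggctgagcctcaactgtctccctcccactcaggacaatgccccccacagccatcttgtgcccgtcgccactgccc
Sema3c: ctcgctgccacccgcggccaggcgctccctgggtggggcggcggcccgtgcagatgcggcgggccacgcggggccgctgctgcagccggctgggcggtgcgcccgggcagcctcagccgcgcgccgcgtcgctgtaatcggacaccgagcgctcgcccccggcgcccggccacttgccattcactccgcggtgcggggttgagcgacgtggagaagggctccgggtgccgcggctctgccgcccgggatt
The SOX core stood at 2 places in the window of Sema3d and at 1 in that of Plxnb3, and neither core stood in that of Sema3c. Over all windows of the same length, 18.6% of 27025 genes and 14.9% of the 47 members held the SOX core, and 13.6% and 12.8% held the ETS core. A homeodomain core, TAATTA, stood in 5.65% of all windows and in those of 2 members. Of 8 members with their highest level in an oligodendrocyte lineage gate and a window, 3 (Plxnb3, Sema3d and Sema4f) held the SOX core, and of 8 with their highest level in endothelial cells none held either core. These matches describe letters in a window and are not binding sites. The Sema3c window was 78.4% G or C and the Sema3d window 46.8%, against a median of 64.4% over member windows and 52.4% over all windows.

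Across the 17 classes, 43 members reached 20 CPM in at least 1 class, and for 28 of them the interval of the highest class did not overlap that of the next. Separation was not counted over all genes, so 28 of 43 cannot be called particular to these families. The other 13 members stayed under 20 CPM everywhere. They were Sema3a, Sema3e, Plxna1, Efna3, Efna4, Efna5, Epha1, Epha7, Epha8, Epha10, Ephb6 and the antisense RNAs Plxna4os2 and Plxna4os3, and their highest levels ran from 0 for Plxna4os3 to 17.6 CPM for Efna3 in neurons. For members with a separated highest class, and where a suffix held at least 50 cells of that class, the suffix alone gave the same highest class for 14 of 14 members in suffix 1, 12 of 12 in suffix 2 and 18 of 18 in suffix 3. This is not independent agreement, because the same cells make up the pool in which these members were separated. Only 11, 10 and 10 classes could be compared in the suffixes. The gate of newly formed oligodendrocytes, with 22, 16 and 14 cells, was not among them. Members without separation could change places: in suffix 2, Epha4, Efnb1 and Efna2 were at 102.5, 56.2 and 26.2 CPM in neuroblasts and at 107, 57.4 and 28.7 CPM in dividing neuroblasts.

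**Figure D1:**
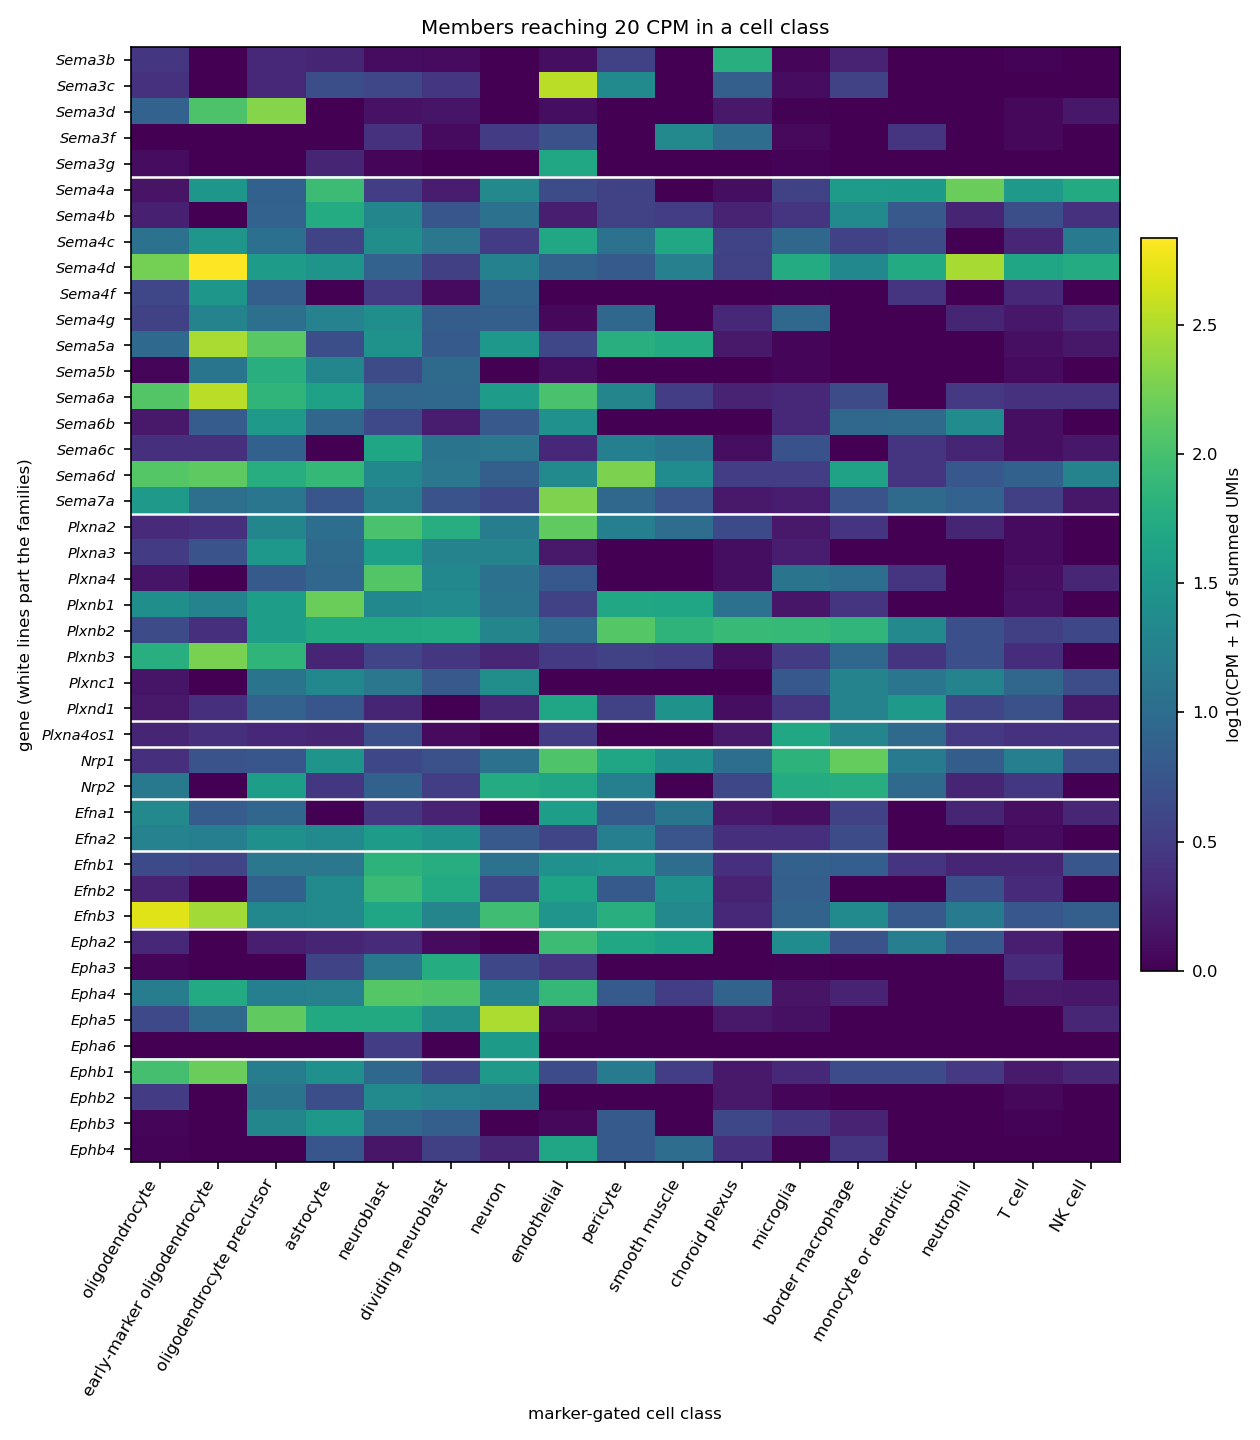
Levels of the 43 members that reached 20 CPM (rows, grouped by family) in 17 marker-gated cell classes (columns). Colour is log10(CPM + 1) of the summed UMIs. Secreted semaphorins are each bright in 1 or a few columns, whereas Plxnb2 and Sema6d reach 50 CPM or more in several.

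Of the secreted semaphorins, Sema3c, which acts through neuropilins and plexin D1, was at 344 CPM (330 to 358) in endothelial cells and at 21.2 CPM (9.13 to 41.7) in pericytes, the next class. A UMI of Sema3c was found in 74.8% of endothelial cells (exact Clopper-Pearson interval 71.9 to 77.6) and in 0.227% of microglia. Sema3g, an endothelial semaphorin, reached 48.7 CPM (43.7 to 54.2) in endothelial cells and under 1 CPM in every other class.

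Sema3d was at 207 CPM (190.1 to 224) in oligodendrocyte precursors, at 109 CPM (86.2 to 137) in early-marker cells and at 6.81 CPM (6.17 to 7.50) in mature oligodendrocytes. In precursors it measured 212, 199 and 203 CPM in suffixes 1, 2 and 3, so the libraries lay close together. Sema3b was at 59.2 CPM (51.5 to 67.8) in choroid plexus cells, with 56.5 and 61.0 CPM in suffixes 1 and 2. Ttr alone made up 352800 CPM of that class, so that other genes there are understated. Sema3f was at 20.7 CPM (9.46 to 39.3) in smooth muscle, from 9 UMIs, and at 9.31 CPM in choroid plexus cells, and these were not separated.

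Among the membrane semaphorins, the oligodendrocyte lineage held several of the highest levels. Sema4d, a ligand of plexin B1 and of CD72, was at 681 CPM (621 to 745) in the early-marker gate, at 175 CPM (172 to 178) in mature oligodendrocytes and at 34.6 CPM in precursors. The early-marker value rested on 473 UMIs of 52 cells. It was 437 CPM in suffix 1, 444 CPM in suffix 2 and 1088 CPM in suffix 3, was 356 CPM under the upper UMI and gene limits of the study's methods and 196 CPM under a gate with 1 more marker, and was 440 CPM without suffix 3. Sema4d had a second high level in neutrophils, at 289.5 CPM (257 to 324), with 328, 260 and 55.9 CPM in the suffixes. These came from 208, 54 and 20 cells, and the level was 173.5 CPM without suffix 1.

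Sema6a, which binds plexins A2 and A4, followed the early-marker gate too, at 347 CPM (304.5 to 394) against 119 CPM in mature cells, 70.3 CPM in precursors and 105 CPM in endothelial cells. Sema5a was at 299.5 CPM (260.1 to 343) in early-marker cells, 126 CPM (113 to 140.2) in precursors and 8.34 CPM in mature cells. In the early-marker cells Sema5a read 345, 305 and 252 CPM in the suffixes, all above the 120.5, 151 and 85.0 CPM of the precursors. Thinned to 1000 UMIs a cell, the early-marker level of Sema5a was 154 CPM. Sema5a also reached 60.8 CPM in pericytes and 52.9 CPM in smooth muscle. Sema4f, another membrane semaphorin, was at 30.2 CPM (18.7 to 46.2) in the early-marker gate and at 7.26 CPM in neurons, the next class. Sema5b, at 58.8 CPM (50.1 to 68.5), and Sema6b, at 32.1 CPM (25.8 to 39.5), were highest in precursors, and Sema6b was not separated from the 26.4 CPM of endothelial cells.

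Sema6d, a ligand of plexin A1, reached 185 CPM (144 to 234) in pericytes, 132.5 CPM in early-marker cells and 119.9 CPM (117 to 123) in mature oligodendrocytes. The first pair was not separated. Sema7a, which is held by a lipid anchor and binds plexin C1 and integrins, was at 190.5 CPM (180.4 to 201) in endothelial cells and 33.0 CPM in mature oligodendrocytes. Sema6c was at 47.0 CPM (42.5 to 51.9) in neuroblasts against 15.9 CPM in pericytes, the next class. Sema4g, at 24.6 CPM, was also highest in neuroblasts but not separated. Sema4c was at 48.3 CPM in smooth muscle and 47.7 CPM in endothelial cells, which were not separated either.

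Sema4a, known for its action on T cells, was at 153 CPM (129.6 to 178.5) in neutrophils, with 166, 102 and 121 CPM in the suffixes, at 86.3 CPM (69.5 to 106) in astrocytes, at 53.4 CPM in NK cells and at 32.5 CPM (29.5 to 35.7) in T cells. Sema4b was at 55.0 CPM (41.8 to 71.1) in astrocytes and at 21.8 CPM in border macrophages. Astrocytes of the 3 suffixes read 47.1, 47.4 and 60.6 CPM of Sema4b, all inside the interval of the pooled cells.

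Among the receptors of the plexin A class, Plxna4, Plxna3 and Plxna2 were higher in neuroblasts by the 2-fold rule, and Plxna1 was at 2.28 CPM there. Plxna4, which takes Sema3 and Sema6 signals, was at 118 CPM (111 to 125.5) in neuroblasts and at 20.2 CPM (16.3 to 24.9) in dividing neuroblasts. Plxna2 was at 138 CPM (129.7 to 147) in endothelial cells and at 104.5 CPM (97.7 to 112) in neuroblasts. Plxna3 was at 38.5 CPM in neuroblasts and 31.4 CPM in precursors, which were not separated.

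Plxnb1, the receptor of Sema4d, was at 155.5 CPM (133 to 181) in astrocytes, with 126, 98.7 and 188 CPM in the suffixes, and at 47.6 CPM in pericytes, the next class. Plxnb3, which binds Sema5a, was at 184 CPM (154 to 219) in early-marker cells, 70.3 CPM (60.8 to 80.9) in precursors and 61.0 CPM (59.1 to 63.0) in mature oligodendrocytes, and at 7.86 CPM or less in every class outside this lineage. Plxnb2, a receptor of Sema4 proteins, was at 122 CPM (89.0 to 162) in pericytes, at 80.4 CPM in choroid plexus cells, at 77.3 CPM (75.5 to 79.1) in microglia and at 3.60 CPM in oligodendrocytes. Pericytes were not separated from choroid plexus cells, and read 76.9 CPM after thinning. Plxnd1, a receptor of Sema3e, was at 45.3 CPM (40.4 to 50.5) in endothelial cells and 32.5 CPM in the monocyte or dendritic gate, and Plxnc1, the receptor of Sema7a, at 23.9 CPM in neurons and 19.9 CPM in astrocytes, with no separation in either pair.

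Nrp1, a co-receptor of Sema3 proteins and of VEGF, was at 147 CPM (125 to 171) in border macrophages, 111 CPM (103.5 to 119) in endothelial cells and 67.4 CPM (65.8 to 69.1) in microglia. Border macrophages measured 120.2 CPM of Nrp1 in suffix 1, 80.4 CPM in suffix 2 and 156.5 CPM in suffix 3, from 19, 15 and 151 cells. Nrp2 lay at 57.6 CPM in border macrophages, 55.0 CPM in neurons, 54.0 CPM in microglia and 45.8 CPM in endothelial cells, and the first 3 were not separated. The endothelial interval (40.96 to 51.15) also overlapped those of border macrophages and neurons, but not that of microglia. Plxna4os1, an RNA read from the strand opposite to Plxna4 and inside that gene (chr6:32511073-32515576, plus strand, GENCODE vM21; Plxna4 chr6:32144268-32588192, minus strand), was at 48.9 CPM (47.5 to 50.4) in microglia, where Plxna4 was at 11.2 CPM. No exon of Plxna4os1 overlapped an exon of Plxna4. The sources used here do not say whether counting used the strand. If it did not, reads of this antisense RNA and of unspliced Plxna4 could not be told apart.

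Among the ephrins, Efnb3, a myelin-associated ligand of EphA4 and EphB receptors (chr11:69554092-69560205, minus strand), was highest in mature oligodendrocytes, at 489 CPM (484 to 495). It was at 272 CPM (235 to 314) in early-marker cells, 91.3 CPM (73.2 to 112.5) in neurons and 20.2 CPM in precursors. A UMI was found in 86.3% of oligodendrocytes (85.5 to 87.0), 61.3% of neurons (49.4 to 72.4), 5.80% of microglia and 2.41% of T cells, at medians of 6174, 11881, 7551.5 and 4717 UMIs per cell. In oligodendrocytes, Efnb3 was at 399, 362 and 652 CPM in suffixes 1, 2 and 3. Suffix 3 lay above the other two in oligodendrocytes, early-marker cells and precursors alike, and without it oligodendrocytes were at 378 CPM.

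Efnb2, the ligand of EphB4 known from arterial endothelium, was at 83.7 CPM (77.6 to 90.1) in neuroblasts, 52.9 CPM (46.3 to 60.1) in dividing neuroblasts and 43.3 CPM (38.5 to 48.4) in endothelial cells. Efnb1 was at 66.5 CPM and 56.9 CPM in the neuroblast gates, which were not separated. Efna1 was at 37.2 CPM (32.9 to 42.1) in endothelial cells and 20.8 CPM (19.6 to 21.9) in oligodendrocytes, and Efna2 at 35.6 CPM in neuroblasts and 27.4 CPM in dividing neuroblasts, with no separation of the latter pair.

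Of the EphA receptors, Epha4, which binds ligands of both ephrin classes, was at 123 CPM (115 to 130.4) in neuroblasts and 112 CPM (102 to 122) in dividing neuroblasts, and at 76.2 CPM (69.9 to 83.0) in endothelial cells. Neuroblasts of the 3 suffixes measured 121, 102 and 144 CPM. Epha5 was at 303 CPM (269 to 340) in neurons, where 94.7% of cells held a UMI, at 139 CPM (125 to 153) in precursors and at 52.3 CPM in neuroblasts. In precursors it read 121, 112 and 304 CPM, and the value of suffix 3 came from 65 cells. Epha6 reached 34.2 CPM (23.6 to 48.1) in neurons and 2.28 CPM in neuroblasts. Epha3 was at 56.0 CPM (49.3 to 63.4) in dividing neuroblasts and 12.7 CPM (10.4 to 15.4) in the other neuroblasts. Epha2 was at 87.1 CPM (80.3 to 94.3) in endothelial cells, 47.6 CPM in pericytes and 23.0 CPM in microglia.

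Of the EphB receptors, Ephb1 was at 151 CPM (124 to 183) in early-marker cells, 99.7 CPM (97.2 to 102) in mature oligodendrocytes and 14.4 CPM in precursors. Early-marker cells of suffixes 1, 2 and 3 read 80.2, 160 and 213 CPM of Ephb1, and mature cells 98.1, 91.2 and 108 CPM. The order of the 2 gates was thus reversed in suffix 1. Ephb4, the vascular EphB receptor, was at 44.8 CPM (40.0 to 50.1) in endothelial cells against 9.20 CPM in smooth muscle. Ephb3 was at 31.3 CPM in astrocytes and 19.1 CPM in precursors, and Ephb2 at 21.0 CPM in neuroblasts and 17.1 CPM in dividing neuroblasts, and neither pair was separated.

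By class, mature oligodendrocytes had 7 of 47 members higher (Efnb3, Ephb1, Sema6d, Plxnb3, Sema6a, Efna1 and Sema4d), against 7.75% of all genes. The early-marker gate had 11, against 9.39% of all genes, and the precursors 11, against 12.9%. Among these gates, pooled levels of Sema3d, Epha5, Sema5b and Sema6b were highest in precursors, those of Sema5a, Plxnb3, Sema6a, Sema4d and Ephb1 in the early-marker gate, and that of Efnb3 in mature cells. In suffix 1 alone, Ephb1 was highest in mature cells. The median fold of the 47 members over the mean of the other classes was 0.606, 0.637 and 0.897 in mature, early-marker and precursor cells, against 0.875, 0.884 and 1.197 over all genes.

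**Figure D2:**
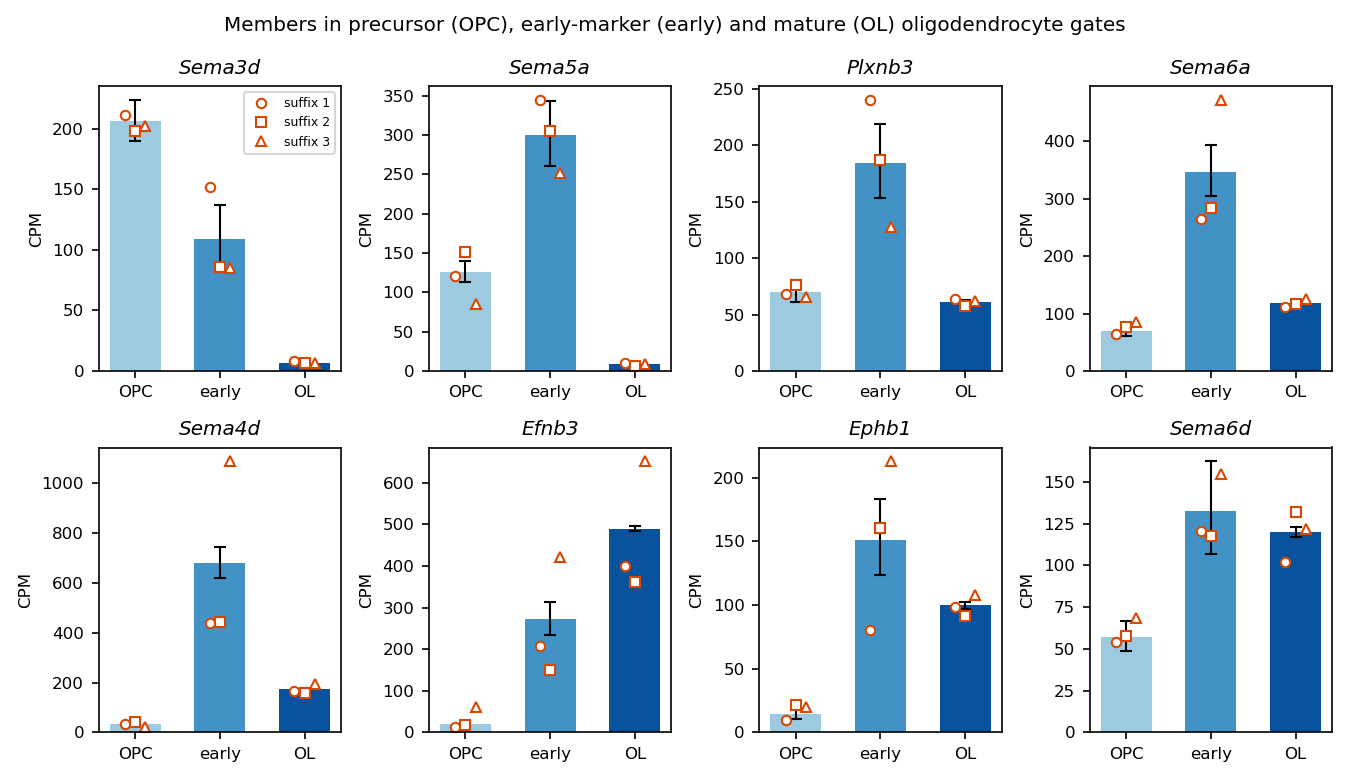
Levels in CPM (bars, linear axis from 0) of 8 members in the precursor (OPC), early-marker (early) and mature (OL) oligodendrocyte gates, with exact Poisson 95% intervals of the pooled cells as black lines and each barcode suffix as an open symbol. Sema3d lies at 207 CPM in precursors and 6.81 CPM in mature cells and Efnb3 at 20.2 and 489 CPM. Pooled levels of the other 6 members are highest in the early-marker gate, Sema6d without separation from mature cells. In suffix 1, Ephb1 lies lower in early-marker than in mature cells.

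Mature oligodendrocytes were not uniform. Cells with at least 2 UMIs of Klk6 and none of Il33 (667 cells) were set beside cells with at least 2 UMIs of Il33 and none of Klk6 (4745 cells), a split chosen after values were seen. Sema6d was at 35.4 CPM (30.9 to 40.3) in the Klk6 cells and at 152 CPM (147 to 156) in the Il33 cells. The Klk6 cells of suffixes 1, 2 and 3 measured 34.7, 40.3 and 32.8 CPM and the Il33 cells 127.5, 159.7 and 159 CPM, so the sets did not overlap. Ephb1 was the other way round, at 170.5, 153 and 166 CPM in Klk6 cells and 83.4, 85.2 and 94.98 CPM in Il33 cells. Sema5a measured 29.9, 30.8 and 29.4 CPM in Klk6 cells and 1.70, 1.94 and 2.52 CPM in Il33 cells. Efnb3 was similar in both, at 515 CPM (498 to 533) and 491 CPM (483 to 498.5). Median depth was 9598 UMIs in the Klk6 cells and 6370 in the Il33 cells, and its part in these differences was not tested.

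Neuroblasts had 11 members higher, against 10.3% of all genes, and dividing neuroblasts 9, against 11.4%. Efnb1, Efnb2, Efna2, Efna4, Epha4, Ephb2 and Plxna2 were higher in both. Of the 18 members that reached 20 CPM in either gate, 11 had a lower interval in dividing cells without overlap, 1 a higher one, and 6 overlapped. The lower ones were Plxna4, Sema6c, Sema5a, Sema4g, Efnb3, Plxna3, Epha5, Sema4c, Plxna2, Efnb2 and Sema6d, and the higher one was Epha3. Of the 2 gates, Sema4c, Sema6d, Plxna3, Sema6c, Efnb3, Sema5a and Sema4g reached 20 CPM in neuroblasts only. Epha3 did so in dividing cells only. For these members the choice by level in either gate favoured the direction seen. The same count was not made over all genes, so this split cannot be called particular to these families. Sema5a was at 5.40 CPM in dividing cells and 27.2 CPM in the others, and Sema4g at 5.85 and 24.6 CPM. Epha3 was at 52.9, 39.8 and 70.8 CPM in the dividing cells of suffixes 1, 2 and 3 and at 12.2, 10.2 and 15.6 CPM in the others, without overlap. Plxna4 was at 25.9, 9.78 and 25.7 CPM in dividing cells and at 121, 101 and 132 CPM in the others. The dividing cells were deeper, with a median of 11575.5 UMIs against 4429.5. Their Dcx, a neuroblast marker, read 293, 235 and 226 CPM in the suffixes against 704, 609 and 571 CPM in the others. The part of depth and of the marker level in these differences was not tested.

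**Figure D3:**
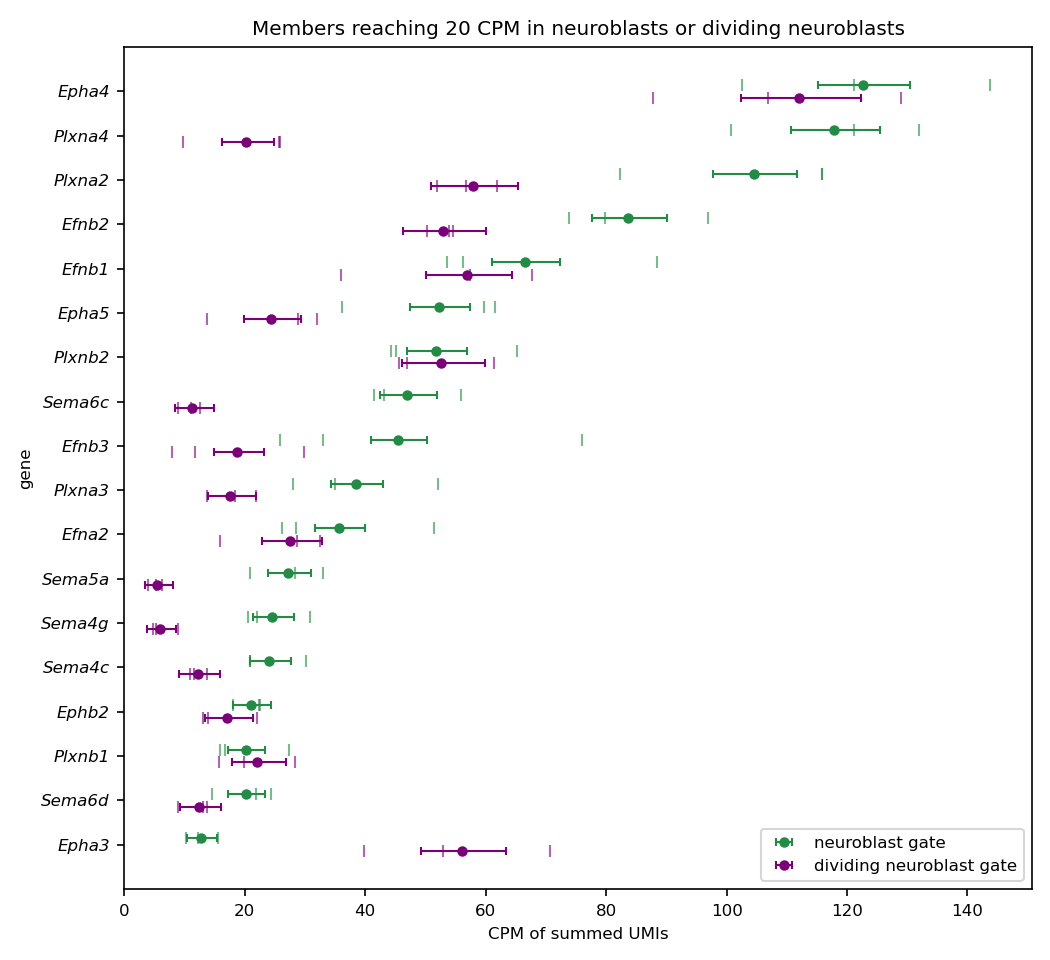
Levels in CPM (linear axis) of the 18 members that reached 20 CPM in neuroblasts (green) or dividing neuroblasts (purple). Points are pooled cells with exact Poisson 95% intervals and short ticks the 3 barcode suffixes. Plxna4 lies at 118 against 20.2 CPM and Epha3 at 12.7 against 56.0 CPM, whereas Epha4, Efnb1 and Plxnb2 overlap.

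Neurons had 7 members higher (14.9% of the 47), near the 14.1% of all genes, and astrocytes 7 (14.9%), against 10.7%. For neurons these included Epha5 and Nrp2, and for astrocytes Plxnb1, Sema4b, Ephb3 and Sema4a. The 75 neurons came from suffixes 1 and 2 only, where Epha5 read 326 and 216 CPM.

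Endothelial cells had 15 of 47 members higher, against 8.09% of all genes. They were the secreted Sema3c and Sema3g, the membrane semaphorins Sema4c, Sema6a, Sema6b and Sema7a, the receptors Plxna2, Plxnd1, Nrp1 and Nrp2, the ephrins Efna1 and Efnb2 and the receptors Epha2, Epha4 and Ephb4. Since 891 of the 909 cells carried suffix 3, these values belong almost wholly to 1 library. Endothelial cells held 340 of the 362 UMIs of Sema3g and 313 of the 355 of Ephb4. Both thus passed the filter of 100 UMIs only through this class. Pericytes had 4 members higher (8.51% of the 47, against 7.91% of all genes) and smooth muscle 4 (8.51%, against 6.85%). Both are near the share of all genes. Epha2 was higher in both classes.
Endothelial cells were split by genes outside the families, after values were seen. Bmx, Gkn3, Vegfc, Fbln5 and Mgp are known from arterial endothelium, and Slc38a5, Nr2f2, Ackr1, Lcn2 and Vwf mostly from veins. Cells with at least 2 genes of the first list only (74 cells) held 252 CPM (215 to 293.5) of Sema3g and 132 CPM (106 to 163) of Efnb2. Cells with at least 2 of the second only (320 cells) held 5.46 CPM (3.18 to 8.75) and 11.6 CPM (8.10 to 16.0). Cells with neither (476 cells) lay between, at 39.3 and 53.8 CPM. Nrp2 ran the other way, at 3.04 CPM (0.368 to 10.97) in cells of the first list, 60.7 CPM (52.4 to 70.0) in those of the second and 18.8 CPM (13.7 to 25.2) in cells with neither. Sema3f was at 28.8 CPM (17.4 to 45.1) in cells of the first list and under 1 CPM in the others. Ephb4 was at 34.9 CPM (22.1 to 52.4), 48.5 CPM (41.1 to 56.9) and 38.0 CPM (30.5 to 46.8), and these intervals overlapped. Cells with at least 2 genes of both lists were left out. Median depth was 6680 UMIs in cells of the first list, 7368.5 in those of the second and 4608 in cells with neither. The part of depth in these differences was not tested.

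**Figure D4:**
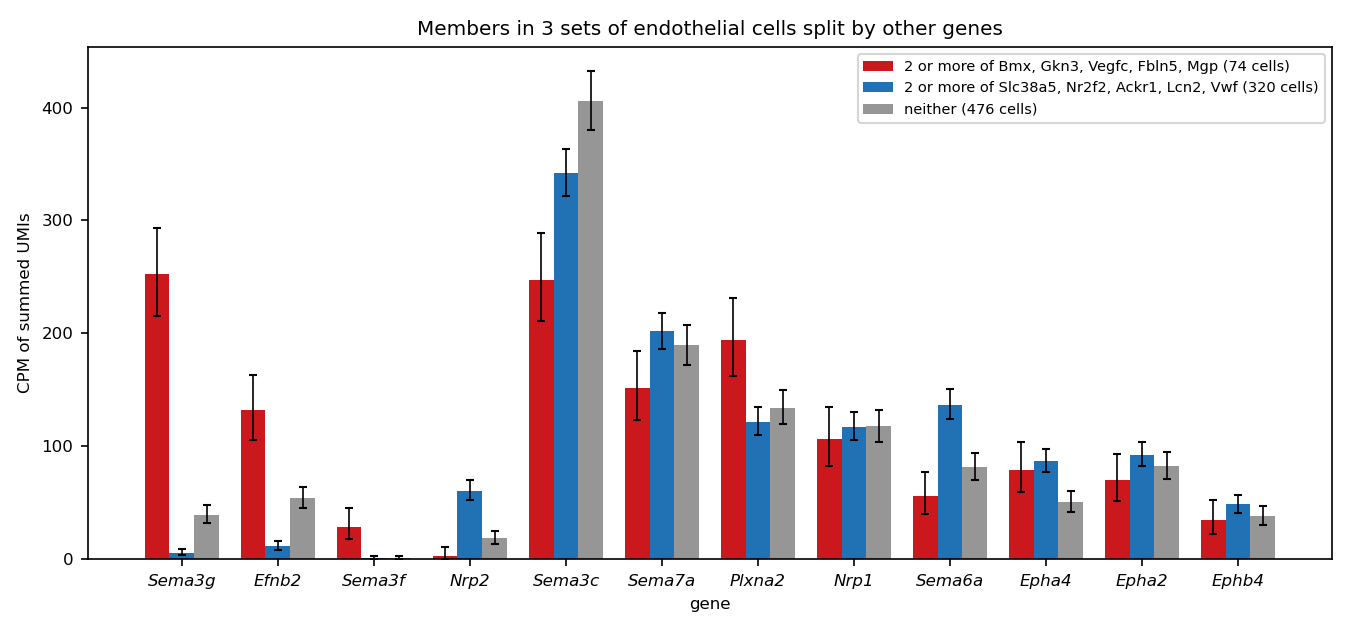
Levels in CPM (bars from 0, exact Poisson 95% intervals) of 12 members in endothelial cells with 2 or more genes of the Bmx list (red, 74 cells), with 2 or more of the Slc38a5 list (blue, 320 cells) or neither (grey, 476 cells). Sema3g, Efnb2 and Sema3f are high in red and low in blue, Nrp2 and Sema6a the reverse, and Nrp1 and Ephb4 overlap across the sets.

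Choroid plexus cells had 3 members higher (5.31% of all genes), microglia 3 (4.77%), border macrophages 4 (5.17%) and neutrophils 3 (7.27%). The shares of the 47 members were 6.38% in choroid plexus cells, microglia and neutrophils, near those of all genes, and 8.51% in border macrophages. The microglial members were Plxna4os1, Nrp2 and Nrp1, and those of neutrophils were Sema4a, Sema4d and Sema6b, the last at 22.5 CPM. The monocyte or dendritic gate had 1 (4.56%), Plxnd1, and T cells (4.64%) and NK cells (4.04%) had 0. EphA receptors summed to 2.66 and 1.55 CPM in T and NK cells against 195 CPM (185 to 204.5) in neuroblasts.

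In microglia, Epha2 was at 19.6, 14.2 and 67.9 CPM in suffixes 1, 2 and 3, and Plxnb2 at 76.0, 66.3 and 126 CPM, so suffix 3 stood above the other two. Suffix 3 also differed in Cst7, a gene known from activated microglia. Of the 4814 microglia with at least 2 UMIs of Cst7, 7 carried suffix 3. Among cells with no Cst7 UMI, Epha2 was at 44.3, 40.4 and 68.4 CPM in the 3 suffixes, and among cells with at least 2 at 9.78 and 8.66 CPM in suffixes 1 and 2. Plxna4 was at 18.8, 22.0 and 27.8 CPM without Cst7 and 5.14 and 5.81 CPM with it, while Nrp1 was at 56.4, 59.97 and 49.7 CPM without and 75.2 and 72.1 CPM with it. In suffixes 1 and 2, Nrp2 was at 54.5 and 56.7 CPM without Cst7 and at 52.6 and 57.6 CPM with it. Cells without Cst7 were shallower, with median depths of 5101.5 and 4637 UMIs against 12874 and 11511.5 in suffixes 1 and 2. The part of depth in the differences by Cst7 was not tested.

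**Figure D5:**
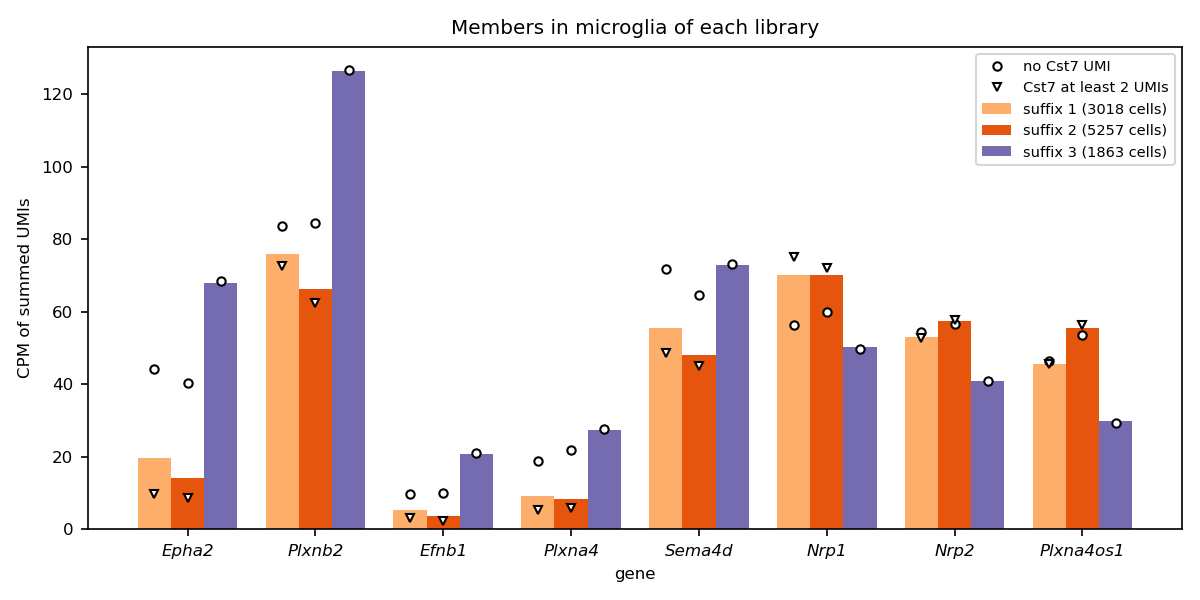
Levels in CPM (bars from 0) of 8 members in the microglia of barcode suffixes 1, 2 and 3, with cells without a Cst7 UMI (open circles) and cells with at least 2 (open triangles, too few in suffix 3 to plot). Epha2, Plxna4 and Efnb1 lie higher in cells without Cst7 than with it in suffixes 1 and 2, and suffix 3 bars are highest for these genes.

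Summed by family, some classes led both a ligand and a receptor family. Early-marker cells led membrane semaphorins and EphB receptors, and neuroblasts led ephrin-A ligands and plexins. Ephrin-A ligands summed to 58.0 CPM (53.0 to 63.4) in neuroblasts and 50.2 CPM (43.8 to 57.2) in dividing neuroblasts, which were not separated. Secreted semaphorins summed to 397 CPM (382 to 412) in endothelial cells, 86.6% of it Sema3c, and to 218 CPM (201 to 236) in precursors, 94.7% of it Sema3d. Neuropilins summed to 204 CPM (179 to 232) in border macrophages, 157 CPM in endothelial cells and 121 CPM in microglia. Membrane semaphorins summed to 1595 CPM (1503 to 1692) in early-marker cells, 42.7% of it Sema4d, 481 CPM in neutrophils and 474 CPM in mature oligodendrocytes. In suffixes 1, 2 and 3 these sums were 1308, 1256 and 2119 CPM in early-marker cells and 536, 403 and 196 CPM in neutrophils. Plexins summed to 351 CPM (339 to 364) in neuroblasts and 265.5 CPM (235 to 298.5) in astrocytes. Ephrin-B ligands summed to 493.5 CPM (488 to 499) in oligodendrocytes, 99.2% of it Efnb3. EphB receptors were led by early-marker cells, at 154 CPM (126 to 186), 98.1% of it Ephb1, and EphA receptors by neurons, at 368 CPM (331 to 409), 82.2% of it Epha5. In suffix 1 alone, EphB receptors summed to 88.3 CPM in early-marker cells and 103 CPM in mature oligodendrocytes.

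Genes that act downstream were read from fixed lists. Genes counted as lower met the 2-fold rule turned round. The share of all genes called lower was not counted, so no count of lower genes can be called particular to a list. Of 25 semaphorin and plexin effectors and co-receptors with enough UMIs, 7 were higher (the rule called 10.3% of all genes there) and 9 lower in neuroblasts, with a median fold of 0.823 against 0.979 over all genes. They were led by the collapsin response mediator genes Dpysl5 (136 CPM), Crmp1 (261 CPM) and Dpysl3 (559 CPM). In early-marker cells 6 were higher (9.39% of all genes) and 12 lower (median 0.598), led by Rnd2 (811 CPM), the plexin-linked oxidase gene Mical3 (194 CPM) and Dpysl4 (57.6 CPM). In precursors 7 were higher (12.9% of all genes, median 0.989), among them the adhesion genes Chl1 (49.8 CPM) and Nrcam (240.2 CPM), and in mature oligodendrocytes 3 (7.75% of all genes), led by Cntn2 (385.5 CPM). Endothelial cells had 4 higher (8.09% of all genes), led by Kdr (225 CPM), the VEGF receptor, Rnd1 (261 CPM) and Rras (252 CPM), and 12 lower. Microglia had 1 higher (4.77% of all genes), the Sema4d receptor gene Cd72, at 193 CPM, and 19 lower.
Of 24 Eph and ephrin effectors and proteases, 6 were higher (10.3% of all genes) and 1 lower in neuroblasts (median fold 1.19 against 0.979 over all genes). They were led by Grip1, Vav2 and Kalrn, at 36.6, 35.7 and 35.8 CPM. Early-marker cells had 3 higher, Chn2 (606 CPM), the kinase gene Fyn (989 CPM) and Abl1 (87.8 CPM), and endothelial cells 2, Tiam1 (68.6 CPM) and Adam10 (124 CPM), a protease that cuts ephrins. The 3 of 24 in early-marker cells and the 2 of 24 in endothelial cells are near the 9.39% and 8.09% called over all genes. Of 15 other guidance genes for comparison, 4 were higher in neuroblasts (10.3% of all genes), led by the slit receptor gene Robo2 (167 CPM), and 6 lower. Endothelial cells had 1 higher, the slit receptor gene Robo4 (132 CPM), and 7 lower. The 1 of 15 is near the 8.09% called over all genes. In precursors 6 were higher (12.9% of all genes, median fold 1.31 against 1.197 over all genes), led by Dscam (125 CPM). None was higher in T or NK cells (4.64% and 4.04% of all genes).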

How the data were processed

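The authors deposited 1 matrix of raw UMI counts per gene and barcode for 3 libraries (Chromium 3′ v3 chemistry). Per the submitters' processing notes and methods, Cell Ranger 3.1.0 with STAR on build mm10 made it, reads were down-sampled across libraries, and Seurat 3.1.1 was used downstream. Barcodes with under 1000 UMIs (2862) or over 30% mitochondrial UMIs (1124 more) were left out here. Cells were gated by counts of detected marker genes. No doublet caller was run, and cells passing unrelated gates were dropped. UMIs were summed per class and scaled to CPM, with exact Poisson and Clopper-Pearson 95% intervals (counting error only). A count of 0 allows up to 3 counts. With 1 pooled sample no test was run. Members, lists, gates and splits were chosen with earlier results of these data known. Named genes were members with at least 20 CPM in a class of 50 or more cells, and of each effector list the 3 with the highest fold. The counting rule was tested on simulated data. Positions are from GENCODE vM21 (GRCm38, the build of mm10), and upstream sequences from RefSeq. Alternatives were other cell filters, gates, pseudocounts (1 and 10 CPM), a summed reference, no gene filter, thinning to 1000 UMIs, and leaving out each suffix. Python 3.11.15, NumPy 2.4.6, SciPy 1.17.1, pandas 2.3.3 and Matplotlib 3.10.9 were used. Values that rest on 1 item are not reported here.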

Additional observations from a re-analysis of the deposited data

Results flagged for a closer look

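The small gates stood outside the comparisons, since each held under 50 cells. Each of the 4 shown here had a member whose level passed the upper limit set by 0 counts. In the fibroblast gate (24 cells), Epha7 was at 117.5 CPM (65.8 to 193.9), against 3.58 CPM or less in the 17 larger classes. In the ependymal gate (19 cells), Plxnb2 was at 170.9 CPM (109.5 to 254.2). In the B cell gate (29 cells), Sema4b was at 71.05 CPM (28.6 to 146.4). In the erythroid gate (49 cells), Efnb3 was at 16.12 CPM (4.39 to 41.3).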

How the results depend on the processing

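Counts of members higher in a class stayed within 1.5 times their main value in most settings. The mitochondrial limit of 10% gave 1 in choroid plexus and 1 in NK cells, and the upper limits of the study's methods gave 1 in choroid plexus. Thinning to 1000 UMIs gave 6 in precursors, 3 in neurons, 0 in choroid plexus and 2 in the monocyte or dendritic gate. A pseudocount of 1 CPM gave 7 in pericytes, 7 in smooth muscle and 1 in NK cells, and one of 10 CPM gave 4 in astrocytes, 3 in neurons, 1 in choroid plexus and 2 in border macrophages. A reference of the summed counts gave 8 in pericytes, 9 in smooth muscle, 5 in microglia, 2 in the monocyte or dendritic gate, 1 in T cells and 1 in NK cells. Leaving out a suffix gave 1 to 2 in choroid plexus, 2 to 5 in microglia, 0 to 1 in NK cells and 2 in the monocyte or dendritic gate. The causes were not tested. Read in a suffix alone, between 12 and 18 members had a highest class, since fewer classes reach 50 cells. The early-marker gate held under 50 cells in every other cell setting but thinning, and endothelial cells, pericytes, smooth muscle and border macrophages did without suffix 3. No paired analysis was possible because the matrix is 1 pooled sample and no result comes from a test.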
